A study of Rattus norvegicus with 9 samples.

Results

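The 6 genes described here encode enzymes that make or use ketone bodies and carriers that move them across membranes: Bdh1, Bdh2, Acat1, Oxct1, Slc16a1 and Slc16a7. They were chosen by symbol from the 19367 genes of a rat kidney expression table, and each of the 6 symbols matched 1 row. The study sequenced kidney RNA in 9 libraries, 3 from each of 3 groups of rats. The first group was spontaneously hypertensive rats (SHR) treated with dapagliflozin, an inhibitor of the sodium-glucose cotransporter SGLT2, at 10 mg/kg per day by mouth for 8 weeks. The second was untreated SHR, an inbred strain that develops high blood pressure and was derived from Wistar-Kyoto stock. The third was untreated Wistar-Kyoto rats (WKY), the normotensive strain usually set against it. Rats were 3 months old at the start, and the untreated groups received distilled water according to the treatment protocol, while another label field gives saline. Group membership comes from the sample titles, because the strain label is the same, Wistar-Kyoto, in SHR and WKY samples alike. No label links individual libraries to individual rats, so each p-value reflects library-to-library spread.

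Ketone bodies are made from fatty acids, mainly in liver mitochondria, which release acetoacetate, and beta-hydroxybutyrate dehydrogenase interconverts acetoacetate and beta-hydroxybutyrate. Other organs, the kidney among them, take these acids up through monocarboxylate carriers, activate acetoacetate with succinyl-CoA:3-oxoacid CoA transferase, and split it with a thiolase into acetyl-CoA for the citric acid cycle. SGLT2 inhibitors are known to raise circulating ketone bodies, and proximal tubule cells, where SGLT2 recovers filtered glucose, are among the cells of the kidney with the highest energy demand.

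Expression was deposited as FPKM (fragments scaled to transcript length and sequencing depth), which summed to between 563643 and 589838 per library, and the read depth behind each value is unknown. A gene was tested when it reached at least 1 FPKM in at least 3 libraries, which kept 13127 genes, including all 6 described here. Segment markers of the kidney were present, with Umod (thick ascending limb) at 1332 to 4616 FPKM and Aqp2 (collecting duct) at 191 to 1168. Slc5a2, which encodes SGLT2 itself, ranged widely, at 0.63, 20.8 and 8.35 FPKM in treated SHR, against 42.9, 23.7 and 2.69 in untreated SHR and 9.75, 70.3 and 43.5 in WKY. Among the segment markers, Pvalb was listed at 0 in 8 of 9 libraries and Slc22a13 in 1. The first treated library stood apart from the other treated libraries: without it, 830 genes passed the test between treated and untreated SHR, against 0 with it.

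Across all 9 libraries Oxct1 had the highest level of the 6, with a mean of 278 FPKM, and Acat1 followed at 260 with an overlapping range. Bdh2 averaged 92.1 FPKM, Slc16a7 61.0, Bdh1 32.3 and Slc16a1 6.15. In that order the ranges of Acat1 and Bdh2 did not overlap, nor did those of Bdh1 and Slc16a1, while each other pair of neighbours overlapped. Oxct1 was the steadiest, its highest library being 1.27 times its lowest, and Slc16a1 the most variable, at 8.38 times. FPKM is scaled by transcript length, so these levels can be set against each other.

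**Figure D1:**
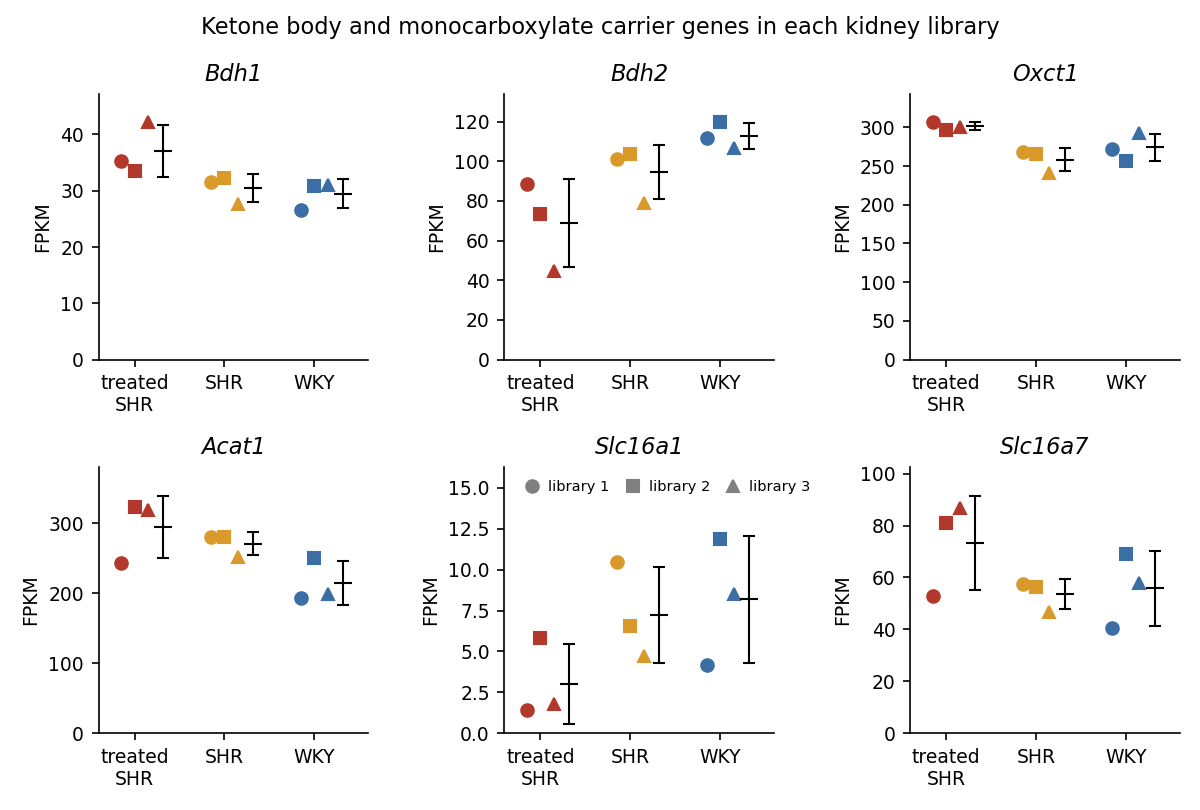
FPKM of the 6 genes in each kidney library, with treated SHR left of untreated SHR and WKY. Points are libraries, with the shape giving the library number, and the bars beside them are the mean ± SD of 3 libraries. Bdh1 and Oxct1 were higher in each treated library than in each untreated SHR library, while Slc16a1 varied over the widest relative range. Treated and untreated SHR did not overlap for 19.0% of all genes.

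The dehydrogenase genes had changes of opposite sign in treated kidneys, and Bdh2 alone passed the test, against WKY. Bdh1 encodes the mitochondrial beta-hydroxybutyrate dehydrogenase. It had 35.3, 33.5 and 42.2 FPKM in treated SHR, against 31.6, 32.2 and 27.6 in untreated SHR and 26.5, 30.9 and 31.0 in WKY. Every treated library lay above every untreated one of either strain. Over all genes, groups did not overlap for 19.0% between treated and untreated SHR and for 38.6% between treated SHR and WKY. Between untreated SHR and WKY the share was 28.4%. These shares stand beside each such separation below, and the share separated from both other groups was not counted. The mean was 37.0 ± 4.60 in treated SHR, 30.5 ± 2.48 in untreated SHR and 29.5 ± 2.54 in WKY (SD, n = 3 each). The log2 change of FPKM + 1 was 0.27 between treated and untreated SHR (SE 0.11, 95% interval 0.02 to 0.51), with an adjusted p of 0.311 from limma with Benjamini-Hochberg adjustment over all genes tested. Against WKY it was 0.32 (SE 0.11, limma adjusted p = 0.0652), so Bdh1 passed the threshold of 0.05 in neither comparison. Without treated library 3, the change between treated and untreated SHR was 0.17.

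Bdh2 encodes a cytosolic enzyme also named type 2 beta-hydroxybutyrate dehydrogenase. It had 88.4, 73.6 and 44.8 FPKM in treated SHR, 101, 104 and 79.1 in untreated SHR, and 112, 120 and 107 in WKY. All treated libraries and all untreated SHR libraries were below the lowest WKY library, and the treated and untreated SHR groups overlapped. Bdh2 averaged 69.0 ± 22.2 FPKM in treated SHR, 94.7 ± 13.5 in untreated SHR and 113 ± 6.68 in WKY (SD, n = 3 each). It fell by 0.75 on the log2 scale in treated SHR relative to WKY (SE 0.22, limma adjusted p = 0.0410). Against untreated SHR the log2 change was -0.50 (SE 0.22, 95% interval -0.998 to 0.01, limma adjusted p = 0.331), and it was -0.22 without treated library 3 and also -0.22 with the early proximal covariate. The fall against WKY passed the test without treated library 1 and lost it without any other single library, with limma adjusted p up to 0.106.

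The 2 genes set within each library showed the same order of groups. The ratio of Bdh2 to Bdh1 FPKM was 2.51, 2.2 and 1.06 in treated SHR, 3.20, 3.22 and 2.86 in untreated SHR, and 4.22, 3.88 and 3.44 in WKY. The 3 groups did not overlap, with treated SHR lowest and WKY highest. The ratio is built from the values above and is no separate support. Its separation of treated SHR from WKY follows from them, as neither gene overlapped between those groups. It is given as a description, without a test, and other gene pairs were not counted.

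Of the enzymes of ketone use, Oxct1 encodes the CoA transferase that activates acetoacetate and that the liver lacks. It had 307, 297 and 300 FPKM in treated SHR, against 268, 266 and 241 in untreated SHR and 272, 257 and 293 in WKY. All 3 treated libraries were above all 6 others, and they were the most tightly grouped. The share of all genes with such a separation was not counted. The mean was 301 ± 5.03 in treated SHR, 258 ± 14.95 in untreated SHR and 274 ± 18.0 in WKY (SD, n = 3 each). The log2 change was 0.22 between treated and untreated SHR (SE 0.08, 95% interval 0.04 to 0.41), with a limma adjusted p of 0.294. Against WKY it was 0.14 (SE 0.08, 95% interval -0.05 to 0.32, limma adjusted p = 0.230), and between untreated SHR and WKY it was -0.08 (SE 0.08, limma adjusted p = 0.582).

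Acat1 encodes the mitochondrial acetoacetyl-CoA thiolase, which splits acetoacetyl-CoA in ketone use and can run in reverse in synthesis. It had 243, 323 and 319 FPKM in treated SHR, 281, 281 and 252 in untreated SHR, and 193, 251 and 199 in WKY. Untreated SHR lay above WKY in every library, whereas the treated group overlapped both others through its first library. Acat1 averaged 295 ± 45.0 FPKM in treated SHR, 271 ± 16.6 in untreated SHR and 215 ± 31.9 in WKY (SD, n = 3 each). It rose by 0.46 on the log2 scale in treated SHR relative to WKY (SE 0.14, limma adjusted p = 0.0475), and the change between untreated SHR and WKY was 0.34 (SE 0.14, limma adjusted p = 0.227). Between treated and untreated SHR the log2 change was 0.11 (SE 0.14, 95% interval -0.21 to 0.43, limma adjusted p = 0.724), and over the other settings it ran from -0.03 to 0.30. The rise against WKY passed the test without treated library 1 or without WKY library 2 and lost it without any other single library, with limma adjusted p up to 0.151.

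Within libraries, the ratio of Oxct1 to Acat1 FPKM was 1.26, 0.919 and 0.943 in treated SHR, 0.955, 0.947 and 0.957 in untreated SHR, and 1.41, 1.02 and 1.47 in WKY. The transferase was thus above the thiolase in each WKY library and slightly below it in each untreated SHR library, and the treated group overlapped both.

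**Figure D2:**
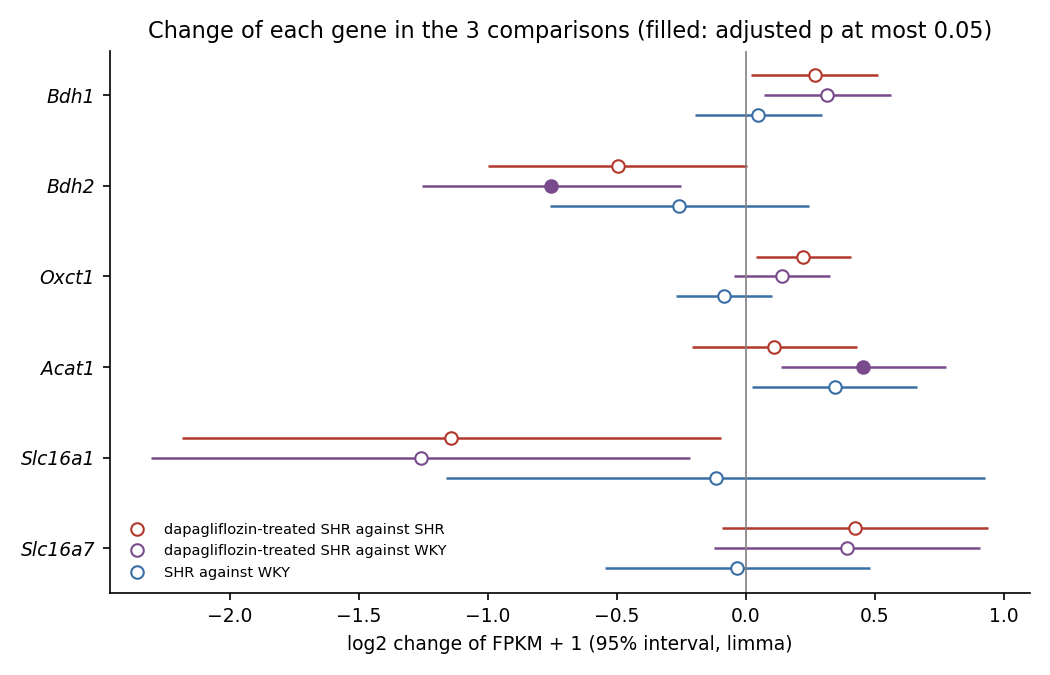
Log2 change of FPKM + 1 for each gene in the 3 comparisons, with 95% intervals from limma, and filled points for an adjusted p of at most 0.05. The filled points are Bdh2 and Acat1 in treated SHR against WKY, at -0.75 and 0.46, and the intervals of Slc16a1 are the widest.

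The carriers are Slc16a1, which encodes the monocarboxylate transporter MCT1, and Slc16a7, which encodes MCT2. Both carry lactate, pyruvate and ketone bodies together with a proton, and MCT2 has the higher affinity. Their promoters are shown because the ratio of these genes did not overlap between treated and other libraries. That ratio was not tested and other gene pairs were not counted, so no motif is tied to it. The 250 bases upstream of each start are from RefSeq, rat build GRCr8, read 5′ to 3′ on the strand of the gene. Slc16a1 is at chr2:194812410-194812659 on the plus strand, and its capitals mark the E-box CACGTG. Slc16a7 is at chr7:63040399-63040648 on the minus strand, and its capitals mark GTTAAT, a core sequence of HNF1 sites.
Slc16a1: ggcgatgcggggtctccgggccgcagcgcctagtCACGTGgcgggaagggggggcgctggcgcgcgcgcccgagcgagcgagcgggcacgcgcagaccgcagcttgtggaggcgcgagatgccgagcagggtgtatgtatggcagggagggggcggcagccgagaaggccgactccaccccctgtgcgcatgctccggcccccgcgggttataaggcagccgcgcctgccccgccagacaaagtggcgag
Slc16a7: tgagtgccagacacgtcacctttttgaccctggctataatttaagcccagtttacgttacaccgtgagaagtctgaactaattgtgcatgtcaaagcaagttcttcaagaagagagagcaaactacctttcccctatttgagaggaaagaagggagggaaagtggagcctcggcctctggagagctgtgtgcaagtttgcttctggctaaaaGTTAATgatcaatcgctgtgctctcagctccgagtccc

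These promoters differed in base composition, with 74.0% G and C in Slc16a1 and 47.2% in Slc16a7, against a median of 51.2% over 33469 rat promoters. In the 250 bases upstream, 6 motifs were searched on both strands. CACGTG occurred once in Slc16a1 and in none of the other 5 genes, and 5.59% of all promoters hold it. GTTAAT occurred once in Slc16a7 and once in Bdh2, and 6.45% of promoters hold it. The GC box GGGCGG was found in Acat1, Bdh1, Oxct1 and Slc16a1, and in 30.5% of promoters, while TGACG was found in Oxct1 and Slc16a7, and in 18.2%. TGACGTCA, which contains TGACG and is held by 1.59% of promoters, and AGGTCA, held by 14.1%, matched in none of the 6. A match or its absence is a description of these letters in this window.

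Slc16a1 was the lowest of the 6 genes. It had 1.42, 5.82 and 1.80 FPKM in treated SHR, against 10.5, 6.58 and 4.71 in untreated SHR and 4.18, 11.9 and 8.48 in WKY. Treated libraries 1 and 3 were below every untreated library, and treated library 2 lay among them. The mean was 3.01 ± 2.44 in treated SHR, 7.25 ± 2.93 in untreated SHR and 8.19 ± 3.87 in WKY (SD, n = 3 each). The log2 change was -1.14 between treated and untreated SHR (SE 0.46, 95% interval -2.19 to -0.10, limma adjusted p = 0.308), and -0.09 with the mean of the early proximal markers as a covariate, a setting added after seeing the data. Against WKY it was -1.26 (SE 0.46, limma adjusted p = 0.0766), and the gene passed the test in neither comparison. Without treated library 2, the change against WKY was -1.72 with a limma adjusted p of 0.0417.

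Slc16a7 had 52.8, 81.0 and 86.6 FPKM in treated SHR, 57.7, 56.1 and 46.8 in untreated SHR, and 40.5, 69.1 and 58.0 in WKY. Treated libraries 2 and 3 were above every untreated library, while treated library 1 lay among them. It averaged 73.5 ± 18.1 FPKM in treated SHR, 53.5 ± 5.86 in untreated SHR and 55.9 ± 14.4 in WKY (SD, n = 3 each). Its log2 change was 0.42 between treated and untreated SHR (SE 0.23, 95% interval -0.09 to 0.94, limma adjusted p = 0.384) and 0.39 against WKY (SE 0.23, limma adjusted p = 0.226). Without treated library 1 it was 0.64 against untreated SHR (limma adjusted p = 0.0889) and 0.61 against WKY (limma adjusted p = 0.0450).

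Neither carrier gene passed the test. The ratio of Slc16a7 to Slc16a1 FPKM did not overlap between treated and other libraries. How many other gene pairs have such a ratio was not counted, so nothing particular to this pair is read from it. It was 37.2, 13.9 and 48.1 in treated SHR, against 5.51, 8.53 and 9.94 in untreated SHR and 9.69, 5.80 and 6.84 in WKY. The low denominator, under 2 FPKM in treated libraries 1 and 3, makes the 2 highest ratios the least precise. The ratio was not tested.

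**Figure D3:**
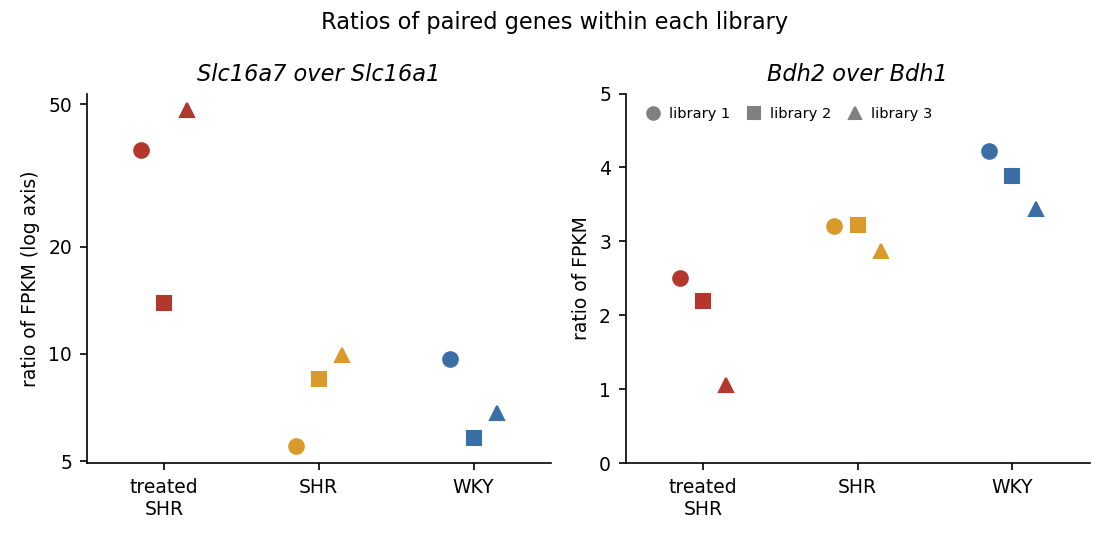
Ratio of FPKM of Slc16a7 to Slc16a1 on a log axis (left) and of Bdh2 to Bdh1 on a linear axis (right) in each library, with the shape giving the library number. The carrier ratio was at least 13.9 in treated SHR and at most 9.94 elsewhere, and the dehydrogenase ratio fell into 3 groups that did not overlap.

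The list of other carrier genes also holds Bsg, Emb, Mpc1 and Mpc2. Of its 10 genes tested, 8 had a lower mean in treated than in untreated SHR, with a median log2 change of -0.19. None passed the test, and 57.4% of all genes were higher. Among the lower ones, the log2 change was only -0.002 for Mpc1, -0.02 for Emb and -0.08 for Mpc2. Slc16a3, which encodes the lactate exporter MCT4, had 3.30, 4.70 and 5.36 FPKM in treated SHR, 2.89, 3.04 and 4.0 in untreated SHR, and 2.78, 3.71 and 2.25 in WKY. Slc5a8 and Slc5a12 encode the sodium-coupled monocarboxylate carriers of the tubule, with high and low affinity. Slc5a8 had 7.71, 7.83 and 3.61 FPKM in treated SHR, 6.95, 7.13 and 11.0 in untreated SHR, and 25.4, 7.18 and 10.3 in WKY. Slc5a12 had 0.23, 5.26 and 2.16 FPKM in treated SHR, 9.86, 4.93 and 0.86 in untreated SHR, and 1.55, 12.1 and 9.77 in WKY. The groups of these 3 genes overlapped, and none of them passed the test. Bsg, the chaperone that brings MCT1 to the membrane, was the most abundant carrier gene, at 846 to 997 FPKM in treated SHR, 753 to 893 in untreated SHR and 817 to 912 in WKY.

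Counted over the 6 genes, 0 passed the test between treated and untreated SHR, where 0% of the 13127 genes tested did so and the smallest adjusted p of any gene was 0.117. At an unadjusted limma p under 0.05 there were 3 of the 6 (Bdh1, Oxct1 and Slc16a1), against 15.2% of all genes. Groups did not overlap for 2 of the 6 (Bdh1 and Oxct1), against 19.0% of all genes. Of the 6, 4 had a higher and 2 a lower mean in treated SHR, where 57.4% of all genes were higher. Their median log2 change was 0.17 beside 0.04 over all genes. The 6 genes were chosen with earlier results of these data known, so nothing particular to them is read from these shares. For those whose groups did not overlap, the two-sided exact permutation test of 3 against 3 libraries gave p = 0.1, the smallest it can give. The comparisons share groups of libraries, so their values are set side by side and not counted as separate support.

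Against WKY, 2 of the 6 passed in treated SHR, Acat1 higher and Bdh2 lower, where 22.9% of all genes passed. At an unadjusted limma p under 0.05 there were 4 of the 6 (Bdh1, Bdh2, Acat1 and Slc16a1), against 40.2%, and groups did not overlap for 3 of the 6 (Bdh1, Bdh2 and Oxct1), against 38.6%. With 6 genes to count, nothing particular to them is read from these shares. Strain and treatment both differ in this comparison and cannot be told apart in it. Over all genes the median log2 change was 0.11 as deposited and -0.01 after median-of-ratios scaling. Relative to the deposited median, the log2 changes were -0.86 for Bdh2, 0.35 for Acat1, 0.21 for Bdh1, 0.03 for Oxct1, 0.28 for Slc16a7 and -1.37 for Slc16a1. With that scaling the call of Bdh2 held (limma adjusted p = 0.0388) and that of Acat1 did not (limma adjusted p = 0.0954). The share of all calls that were higher in treated SHR was 73.5% as deposited and 54.2% with it.

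Between untreated SHR and WKY, 0 of the 6 passed, against 2.96% of all genes, and 1 of the 6 (Acat1) had an unadjusted limma p under 0.05, against 19.5%. Groups did not overlap for 2 of the 6 (Acat1 and Bdh2), against 28.4% of all genes. Bdh2 changed by -0.26 on the log2 scale (SE 0.22, limma adjusted p = 0.537). Bdh1 changed by 0.05 and had the opposite sign after median-of-ratios scaling, while Slc16a1 changed by -0.12 and Slc16a7 by -0.03. The 95% intervals ran from -1.16 to 0.93 for Slc16a1 and from -0.55 to 0.48 for Slc16a7, so neither sign is fixed by these data.

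The other genes of ketone synthesis and use, monocarboxylate transport, regulation and pyruvate use were taken from 5 lists holding 54 genes. Of these, 52 were matched and 44 passed the filter, while Oxct2a and Pcx were not analysed here. The 8 that did not pass were the receptors Hcar1, Hcar2 and Ffar3, the hormone gene Fgf21 and its coreceptor Klb, and Foxa2, Hmgcll1 and Slc16a8, with no library above 0.81 FPKM. In treated against untreated SHR, 0 of the 44 passed, and 25 had a higher and 19 a lower mean log2 value. The median log2 change was 0.08, beside 0.04 over all genes, of which 57.4% were higher. In treated SHR against WKY, 12 of the 44 passed, 9 higher and 3 lower, where 16.8% of all genes passed as higher and 6.09% as lower. After median-of-ratios scaling 6 passed, 3 higher (Cpt2, Ldha and Pdk1) and 3 lower (Acadl, Slc16a11 and Slc16a13). Between untreated SHR and WKY, 0 of the 44 passed.

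Of 13 tested genes of ketone synthesis and fatty acid oxidation, 2 rose and 1 fell in treated SHR against WKY. Of all genes, 16.8% passed as higher and 6.09% as lower in this comparison. With lists this small, the counts here and for the lists below are given as a description. Cpt2, which encodes the inner mitochondrial carnitine palmitoyltransferase, averaged 31.7 FPKM in treated SHR, 24.6 in untreated SHR and 21.1 in WKY (log2 change 0.56, limma adjusted p = 0.0120). Echs1, an enoyl-CoA hydratase, averaged 212 FPKM in treated SHR, 195 in untreated SHR and 175 in WKY (limma adjusted p = 0.0399). Acadl, the long-chain acyl-CoA dehydrogenase, averaged 113 FPKM in treated SHR, 132 in untreated SHR and 182 in WKY (limma adjusted p = 0.0343). Acadm, the medium-chain enzyme, was the most abundant of the list at a mean of 332 FPKM and did not pass.

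Of 9 tested genes of ketone use and the citric acid cycle, 4 rose in treated SHR against WKY and none fell, and after median-of-ratios scaling 0 of the 9 passed. Ogdh, a subunit of the 2-oxoglutarate dehydrogenase complex, had 140, 148 and 143 FPKM in treated SHR, 105, 102 and 116 in untreated SHR, and 117, 104 and 98.1 in WKY. Its treated libraries were all above all others, a separation whose share over all genes was not counted. The log2 change against WKY was 0.43 (SE 0.09, limma adjusted p = 0.0142). Suclg1, the alpha subunit of succinyl-CoA ligase and the most abundant of the list, averaged 269 FPKM in treated SHR, 277 in untreated SHR and 211 in WKY, so the untreated SHR mean was the highest (limma adjusted p = 0.0448). Cs, citrate synthase, averaged 105 FPKM in treated SHR, 83.0 in untreated SHR and 77.2 in WKY (limma adjusted p = 0.0343). Aacs, the cytosolic acetoacetyl-CoA synthetase that uses acetoacetate for lipid synthesis, averaged 3.89 FPKM in treated SHR, 3.30 in untreated SHR and 2.51 in WKY (limma adjusted p = 0.0432).

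Of 10 further carrier genes, 2 fell in treated SHR against WKY. Slc16a11 averaged 48.9 FPKM in treated SHR, 64.8 in untreated SHR and 66.6 in WKY (log2 change -0.44, limma adjusted p = 0.0246), and Slc16a13 averaged 33.2 in treated SHR, 39.9 in untreated SHR and 50.8 in WKY (log2 change -0.64, limma adjusted p = 0.0387). Among 4 regulators, Sirt3, a mitochondrial deacetylase of ketogenic and oxidative enzymes, averaged 32.04 FPKM in treated SHR, 25.8 in untreated SHR and 23.5 in WKY (limma adjusted p = 0.0487), with treated and WKY groups that overlapped.

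Of 8 enzymes of lactate and pyruvate, 2 rose in treated SHR against WKY. Ldha, the lactate dehydrogenase A subunit, had 207, 234 and 270 FPKM in treated SHR, 169, 166 and 177 in untreated SHR, and 143, 153 and 152 in WKY. The 3 groups did not overlap, and how many of all genes share this was not counted. The log2 change was 0.66 (SE 0.10, limma adjusted p = 0.0062). Pdk1, a kinase that inhibits pyruvate dehydrogenase, averaged 11.3 FPKM in treated SHR, 7.81 in untreated SHR and 6.75 in WKY (limma adjusted p = 0.0186). Pck1, a gluconeogenic enzyme of the proximal tubule and the most abundant of the list, ranged from 347 to 1259 FPKM and did not pass. Leaving out each library in turn, Ldha kept its call in 9 of 9 cases and Cpt2 and Ogdh in 8, both losing it without WKY library 3 (limma adjusted p = 0.0555 for Cpt2 and 0.0619 for Ogdh). The other 9 pathway genes named as changed kept theirs in 1 to 6 of 9.

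**Figure D4:**
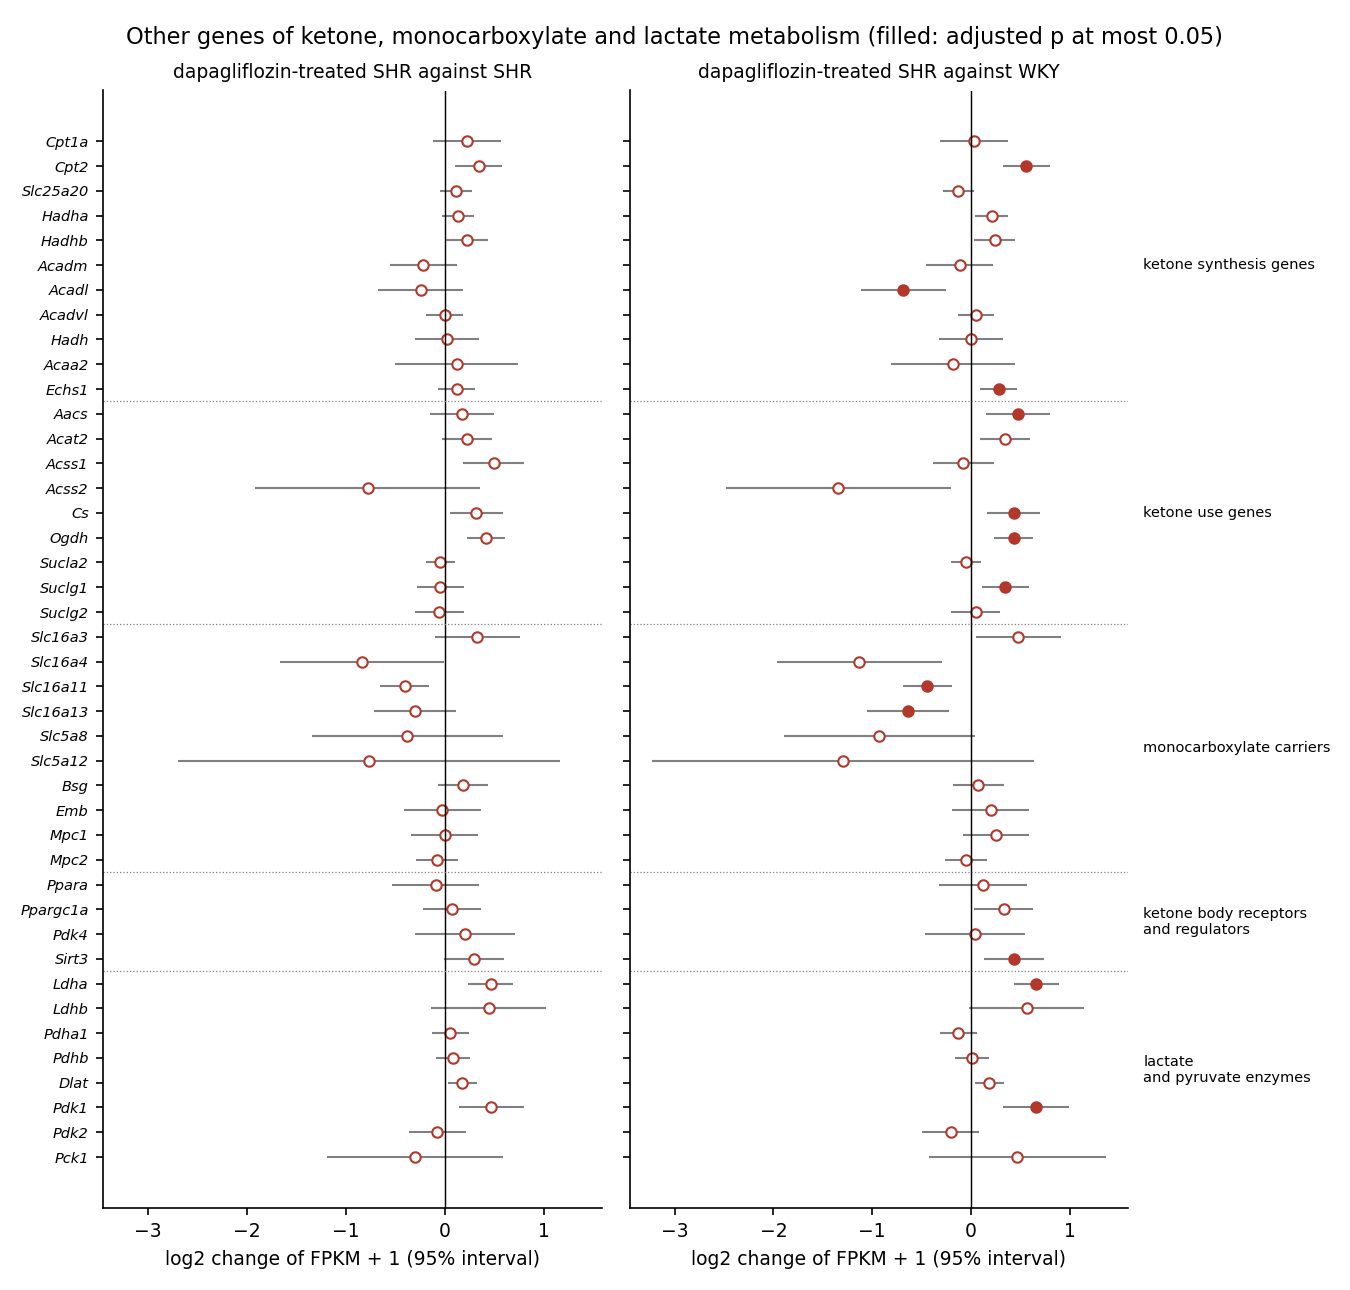
Log2 change of FPKM + 1 for the pathway genes shown, by list, in treated SHR against untreated SHR (left) and against WKY (right), with 95% intervals from limma and filled points for an adjusted p of at most 0.05. Filled points appear on the right alone, 9 higher, with Ldha and Pdk1 at 0.66 each, and 3 lower, with Acadl at -0.68 and Slc16a13 at -0.64.

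Levels of several members moved with markers of nephron segments across libraries. In bulk kidney RNA, fewer cells of a type and less RNA per cell cannot be told apart. The 8 early proximal tubule markers, none at 0 in any library, summed to 1303 to 2381 FPKM in treated SHR, 2521 to 3002 in untreated SHR and 1988 to 2873 in WKY. Their mean log2(FPKM + 1) was 5.20 to 6.31 in treated SHR, 6.04 to 6.69 in untreated SHR and 6.54 to 6.94 in WKY. By this mean, treated SHR lay wholly below WKY and overlapped untreated SHR. By the sums, treated SHR lay wholly below untreated SHR and overlapped WKY. The 8 late proximal markers summed to 257 to 1224 FPKM in treated SHR, 792 to 980 in untreated SHR and 1033 to 2153 in WKY. Their mean log2(FPKM + 1) was 3.79 to 5.29, 4.98 to 5.15 and 5.13 to 5.96 in these groups, which all overlapped. The 7 markers of collecting duct principal cells summed to 1139 to 2048 FPKM in treated SHR, 813 to 969 in untreated SHR and 351 to 642 in WKY, groups that did not overlap.

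Slc16a1 followed the early proximal markers, with Pearson's r = 0.92 between log2(FPKM + 1) and the mean of the list over 9 libraries, and 0.86 after subtracting group means. This was not particular to that segment: within groups r was 0.90 with leukocyte markers (0.80 over all libraries), 0.90 with smooth muscle and fibroblast markers, and -0.67 with late proximal markers. Acat1 ran opposite to the late proximal markers (r = -0.93, and -0.91 within groups), and Slc16a7 did so too (r = -0.82, and -0.84 within groups). Neither was tied to that list alone. Acat1 had r = 0.87 with distal convoluted tubule, 0.86 with podocyte and 0.85 with collecting duct principal markers, and Slc16a7 had 0.81 with distal convoluted tubule markers. Bdh2 ran opposite to the markers of collecting duct principal cells (r = -0.87, and -0.69 within groups) and of intercalated cells (r = -0.89, and -0.76 within groups). It also had r = -0.83 with distal convoluted tubule, 0.80 with early proximal and 0.77 with late proximal markers. Bdh1 had r = 0.78 with collecting duct principal markers (0.47 within groups) and 0.24 with thick ascending limb markers (0.86 within groups). Oxct1 stayed within 0.53 of zero for every list over the 9 libraries, but within groups reached -0.74 with intercalated cell markers and 0.78 with the brown fat and adipocyte markers. These correlations describe 9 libraries in 3 groups, whose values share library and group. Fits with marker means as covariates are given in the last section. The early proximal mean did not overlap between treated SHR and WKY, so a fit with it cannot fully separate markers from group there. Whether the markers account for the results was not tested.

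**Figure D5:**
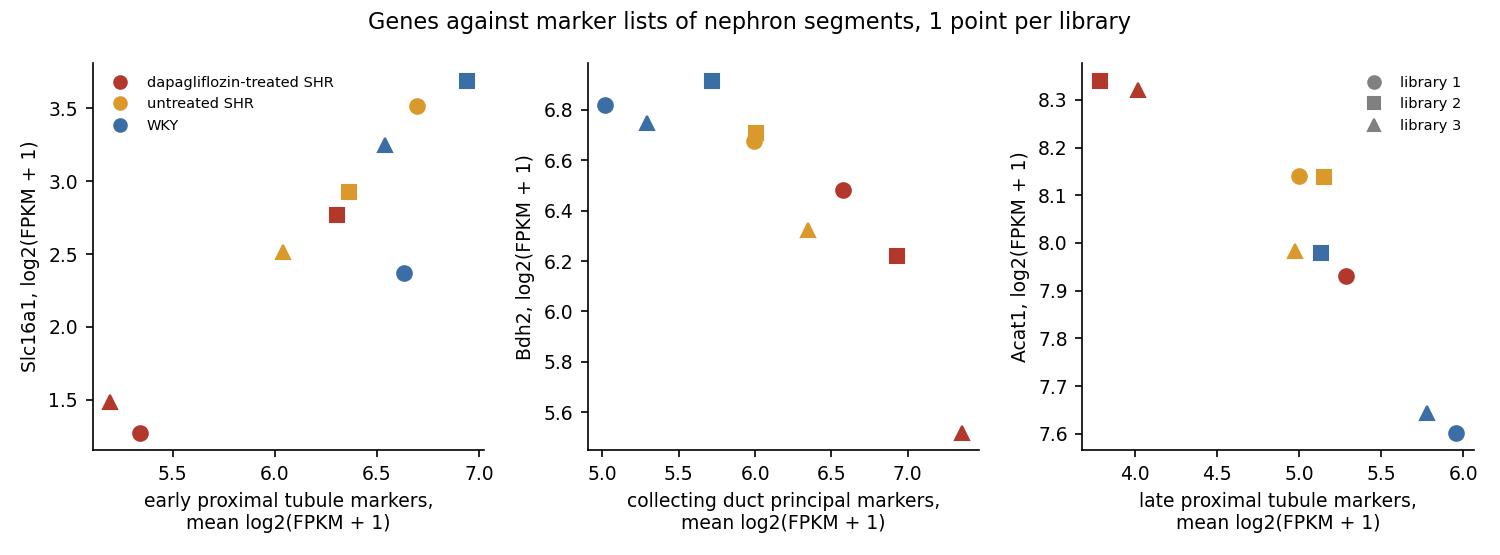
Log2(FPKM + 1) of Slc16a1, Bdh2 and Acat1 against the mean log2(FPKM + 1) of a segment's marker list, 1 point per library, with colour for group and shape for library number. Slc16a1 was lowest in treated libraries 1 and 3, where early proximal markers were lowest too, and Bdh2 was lowest in treated library 3, where collecting duct markers were highest.

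Defining markers of skeletal muscle and liver were low. Those of brown fat and adipocytes were mixed, with Adipoq at 9.97 to 18.9 FPKM and Cidea at 1.55 to 4.49. Plin1 was at most 0.73 FPKM and Fabp4 at most 3.04. Skeletal muscle markers summed to at most 2.01 FPKM in any library, and of the liver markers Alb was at most 0.45 FPKM and Ttr was listed at 0 in 6 of 9 libraries, while Cyp2e1, which kidney also expresses, was at 57.3 to 205. Among the members, r between Acat1 and Slc16a7 was 0.75 over 9 libraries and 0.91 after subtracting group means. Between Bdh1 and Bdh2 it was -0.74, and -0.38 within groups. Slc16a1 and Slc16a7 had an r of 0.73 within groups, without any such relation over all libraries.

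The genes most like each member were searched among 8997 genes with a mean of at least 5 FPKM, by Pearson's r of log2(FPKM + 1) over 9 libraries. For Bdh1 these were Gtf2a2 (r = 0.963), Spcs2 (0.959) and Tsg101 (0.958). Bdh2 was closest to Dnajc22 (r = 0.991), Grtp1 (0.990) and Cbs (0.987), and Acat1 to Csrp2 (0.983), Mark4 (0.979) and Ppp1r37 (0.979). Slc16a7 was closest to Abcg1 (r = 0.994), Cox6b1 (0.980) and Ndufa1 (0.976), and Slc16a1 to Trim3 (0.968), Npl (0.964) and Cfl1 (0.963). Oxct1, the steadiest, had lower values, with Cdc42 at r = 0.901, Bmf at 0.884 and Gramd2b at 0.883. With 9 libraries that share their groups, these are given as a description.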

How the data were processed

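Total RNA from kidney was extracted with Trizol and sequenced as single-end reads on a BGISEQ platform, per the labels' protocols. HISAT2 2.0.4, Bowtie2 2.2.5 and build Rnor_6.0 are named without roles, per the submitters' processing notes, and the program that computed expression is not given in the sources used here. The deposited values are FPKM, per the file headers, with 2 decimals.

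Genes with at least 1 FPKM in at least 3 of 9 libraries (13127 of 19367) were transformed to log2(FPKM + 1), so fold changes of low genes are understated. Comparisons used limma 3.58.1 in R 4.3.3, with a group-means model over all 3 groups, 6 residual degrees of freedom, an intensity trend, two-sided tests and Benjamini-Hochberg adjustment over all genes tested at 0.05. The fits were checked on simulated data with independent noise for each gene. The planted changes were larger than those of the member and pathway genes that passed. That check does not cover such smaller changes or variation that genes share. Tables and figures used Python 3.11.15 with pandas 2.3.3, numpy 2.4.6, matplotlib 3.10.9 and scipy 1.17.1.

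Named were all 6 members, every listed pathway gene that passed in any comparison, the most abundant gene of each list, Slc5a8, Slc5a12, Slc16a3 and Bsg, the 3 genes most like each member, and the segment markers Slc5a2, Umod and Aqp2 with any marker at 0. A few other genes under this rule are not reported here. The members and lists were chosen with earlier results of these data known. Promoters were matched by gene ID for 6 of 6 members in a RefSeq table of build GRCr8. That build is not the one of the deposited values, so no FPKM is tied to these coordinates. Alternatives were another pseudocount, no filter, other scalings, 2 groups only, no intensity trend, a replicate block, segment covariates and leaving out each library; the early proximal covariate was added after seeing the data.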

Additional observations from a re-analysis of the deposited data

How the results depend on the processing

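Each result was recomputed under 18 other settings. Of the values for single genes, 392 kept their direction and side of the threshold. Another 132 kept direction and no longer passed, 2 kept direction and newly passed and 14 reversed. The 132 could come only from results that had passed, and the 392 include results that had not. In treated SHR against WKY, Acat1 lost its call in 14 of the 18 settings and Bdh2 in 12. No filter, 2 groups only, no intensity trend and the replicate block left the log2 change as it was, so they could not reverse it. For the lost, new and reversed values the cause was not tested, beyond the fact that leaving libraries out lowers their number. Of the 6 members, 2 passed in treated SHR against WKY, and this number was 0 with no filter, 0 with 2 groups only, 0 with the nephron segment or early proximal covariate, 1 with median-of-ratios scaling, 1 with quantile normalization, 1 without the intensity trend and 0 to 3 with 1 library left out. In this comparison the calls over all genes were 1026 with 2 groups only, 152 with the nephron segment covariate, 64 with the early proximal covariate and 593 to 4791 with 1 library left out. The 12 pathway calls, 9 higher and 3 lower, became 6 with median-of-ratios scaling, 3 higher and 3 lower, 3 with 2 groups only, 0 with either covariate and 1 to 19 with 1 library left out. In treated against untreated SHR, leaving out 1 library gave 0 to 830 calls over all genes and 0 to 8 in the pathway lists, both highest without treated library 1, with 0 members called then. Between untreated SHR and WKY, leaving out 1 library gave 167 to 626 calls over all genes and 0 to 1 in the pathway lists, and median-of-ratios scaling, 2 groups only and each covariate gave 1 pathway call.

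Reversed log2 changes were those of Acat1 in treated against untreated SHR (-0.0268 with the nephron segment covariate), and in treated SHR against WKY of Slc16a1 (0.27 with the early proximal covariate) and Slc16a7 (-0.27 with the nephron segment covariate). The nephron segment covariate is built from late proximal and podocyte markers alone. Acat1 had r = -0.93 and Slc16a7 r = -0.82 with the late proximal list, so these reversals are no general correction for segment make-up. Between untreated SHR and WKY, Bdh1 was -0.0342 with median-of-ratios scaling, -0.0159 with quantile normalization, -0.0219 with the nephron segment covariate and -0.0232 to 0.115 with 1 library left out. Slc16a1 was 0.36 and Slc16a7 was 0.0714 with the early proximal covariate, and with 1 library left out they ran from -0.48 to 0.18 and from -0.24 to 0.13. No label pairs the libraries by number. Same-numbered libraries of different groups deviated with correlations from -0.33 to 0.46, and different-numbered ones from -0.53 to 0.33. With 3 libraries per group these values cannot settle whether the numbers pair samples. A fit with the replicate block gave 1 call over all genes in treated against untreated SHR, 2700 in treated SHR against WKY and 282 in untreated SHR against WKY, with 0, 2 and 0 members called. Read depth is unknown, so counting error could not be set beside the low values of Slc16a1.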
